A study of Mus musculus with 47 samples.

Results

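Crypts were compared with villi of the small intestine in mice that lack the cell cycle inhibitor p21. The comparison uses 8 of the 47 arrays of the series, chosen by their labels alone: 4 arrays of crypts and 4 of villi from p21-/- mice on the C57BL/6 strain, aged 3 months and fed the Ain76A diet. Every probe set was considered, and each difference is the log2 signal in crypts minus that in villi. A set of 8 arrays from Apc1638N/+ mice and a set of 8 from wild-type mice, with the same ages, strain, diet and pair of tissues, show where the p21-/- axis differs. The Apc1638N allele was carried in 1 copy, and the p21 deletion was carried in both. The labels do not say how many animals stand behind an array or whether replicates came from separate mice. The p-values therefore measure spread between arrays, not between animals known to be separate. In the limma tests that spread was taken from all 47 arrays of the series, including other ages and diets. In tissue of mixed cells, fewer cells of a type and less RNA per cell cannot be told apart.

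Intestinal crypts are the pits in which stem cells and their fast-dividing progeny renew the epithelium, with Paneth cells at their base. Daughter cells leave the cycle as they move up and cover the villi as enterocytes, goblet cells and enteroendocrine cells, and they are shed at the tip. The protein p21, encoded by Cdkn1a, binds cyclin-dependent kinases and holds cells in the first gap phase. It is induced by p53 and is also found in villus cells that have stopped dividing.

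Promoters of the genes that mark the ends of this axis carry short elements that a reader can see in the sequence. Genes of mitosis are often controlled through CCAAT boxes, which the factor NF-Y binds, and through the cell cycle homology region with its core TTTGAA. The mitotic genes shown here were chosen for carrying both motifs in the 110 bases before the start. Among genes of the mitosis list that met this condition they had a large crypt excess. Genes with a larger excess than Ube2c, such as Stmn1 and Incenp, are not shown. Capitals mark CCAAT or TTTGAA on either strand (ATTGG or TTCAAA on the other) in the 110 bases before each gene's start, from RefSeq on GRCm38.p6 and read on the gene's own strand. They lie at chr3:89418292-89418401 on the minus strand (Cks1b), chr4:118437344-118437453 on the minus strand (Cdc20), chr11:99024190-99024299 on the minus strand (Top2a) and chr2:164769819-164769928 on the plus strand (Ube2c).
Cks1b: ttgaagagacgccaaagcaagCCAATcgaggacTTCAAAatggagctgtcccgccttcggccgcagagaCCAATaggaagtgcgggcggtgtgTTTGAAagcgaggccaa
Cdc20: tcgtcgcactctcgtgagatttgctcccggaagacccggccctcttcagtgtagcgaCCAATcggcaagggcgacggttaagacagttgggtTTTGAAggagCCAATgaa
Top2a: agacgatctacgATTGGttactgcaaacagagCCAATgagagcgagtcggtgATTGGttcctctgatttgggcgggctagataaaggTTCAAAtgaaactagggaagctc
Ube2c: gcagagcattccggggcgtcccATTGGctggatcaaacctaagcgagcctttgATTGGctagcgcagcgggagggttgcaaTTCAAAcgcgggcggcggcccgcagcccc

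All shares in this paragraph were counted over promoter windows longer than the printed sequences, with the same length for every promoter. They therefore do not describe the printed stretches alone. Both motifs stood in 66.7% of the 30 promoters of the mitosis list, against 6.95% of all 32851 promoter windows in the RefSeq table. CCAAT alone stood in 80% of the mitosis promoters and 37.4% of all promoters, and TTTGAA in 70% and 17.9%. For DNA replication genes the motif searched was GCGGGAA, with TTCCCGC on the other strand, an E2F-type site. It stood in 40% of 30 promoters of that list and in 4.60% of all promoters. For absorptive genes the motif was CAAAGT, with ACTTTG on the other strand, a unit of the sites that HNF4 factors bind. It stood in 36.8% of 38 promoters, from 32 genes, of the brush border, chylomicron and microvillus genes that were lower in crypts. Its share was 14.4% of all promoters and also 14.4% of the 1714 promoters of all genes lower in crypts. Among the 6946 promoters of tested genes, both mitosis motifs stood in 4.51%, GCGGGAA in 8.18% and CAAAGT in 11.99%. The absorptive set was filtered by calls in these data, while the mitosis and DNA replication lists were not. A match of letters is a description and shows no binding. The next 3 sequences have capitals on GCGGGAA (Rpa2, a subunit of the single-strand DNA binding protein, chr4:132768250-132768359, plus strand) or on CAAAGT (Alpi, intestinal alkaline phosphatase, chr1:87101607-87101716, minus strand, and Apoc2, an apolipoprotein, chr7:19677942-19678051, minus strand).
Rpa2: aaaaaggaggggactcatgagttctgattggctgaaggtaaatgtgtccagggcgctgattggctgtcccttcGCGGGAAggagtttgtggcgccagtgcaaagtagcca
Alpi: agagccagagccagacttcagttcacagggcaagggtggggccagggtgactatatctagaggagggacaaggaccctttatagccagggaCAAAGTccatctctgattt
Apoc2: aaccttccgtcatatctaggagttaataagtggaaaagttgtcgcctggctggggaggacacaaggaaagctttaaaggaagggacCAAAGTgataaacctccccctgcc

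The deposited table leaves 55.2% of all values blank, and it gave between 14758 and 17315 values on the 4 crypt arrays and between 18731 and 20299 on the 4 villus arrays. These ranges do not overlap (exact permutation test, two-sided, p = 0.0286, the smallest that 4 against 4 arrays can give, and 0.103 after adjustment over the 6 array measures tested). Signal of the spike-in controls averaged 14.45 ± 0.58 in crypts and 13.06 ± 0.64 in villi on the log2 scale (SD, n = 4 each; exact permutation p = 0.0571). The excess of 3' over 5' signal for Gapdh, a sign of RNA or labelling quality, averaged 0.49 ± 0.32 in crypts and −0.03 ± 0.29 in villi (exact permutation p = 0.0571). These measures move with the tissue, and their part in the differences below was not tested.

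**Figure D1:**
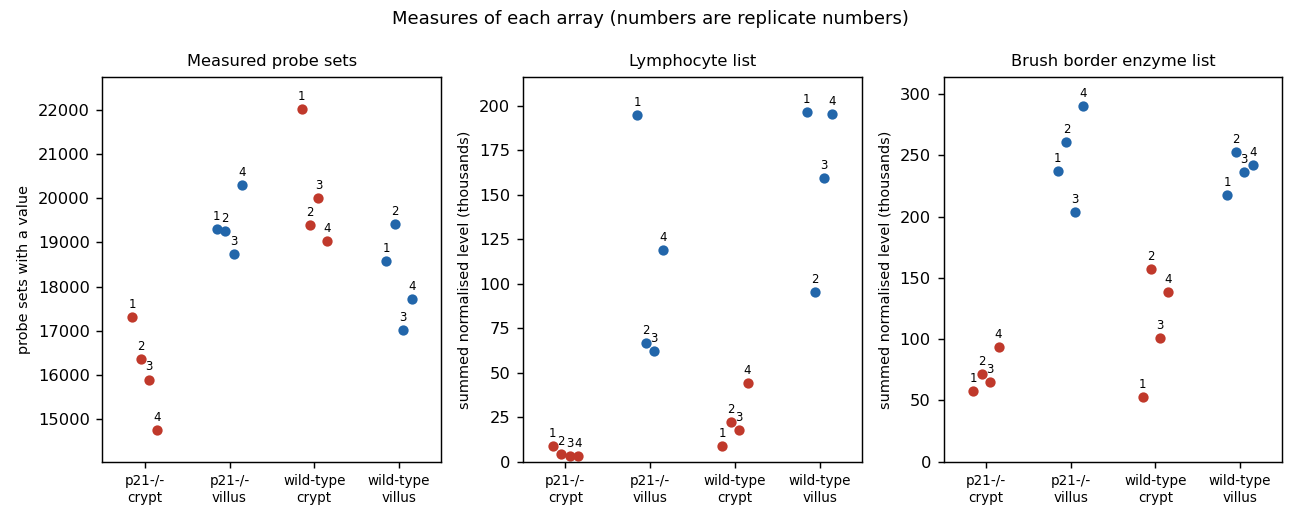
Array measures and summed signal of marker lists, with 1 point per array, for crypts and villi of p21-/- mice and of wild-type mice. The p21-/- crypt arrays hold fewer measured probe sets (14758 to 17315) than the p21-/- villus arrays (18731 to 20299), and the lymphocyte list is low in all 4 p21-/- crypt arrays.

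The targeted gene was read by 2 probe sets. One was blank on all 8 p21-/- arrays and had a value on all 39 other arrays of the series. The other gave 11.24, 11.81, 11.57 and 12.17 log2 units in p21-/- crypts, against 13.17, 13.39, 12.69 and 13.18 in p21-/- villi. Every crypt array lay below every villus array, with a difference of −1.41 ± 0.25 (SE; limma, adjusted p = 1.97e-05). The position of these probe sets relative to the deleted part of Cdkn1a is not known here, so a signal of the second probe set does not bear on the loss of the protein. In wild-type mice this probe set differed by −0.27, while the one blank in p21-/- mice was lower in crypts (−1.82 ± 0.37, adjusted p = 0.00014), so the probe sets disagree there. For the second, the difference between the genotypes, −1.14 ± 0.35, had an adjusted p of 0.074.

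The tissue contrast was broad. Of the 6594 genes with values on at least 3 arrays of each tissue, 1564 (23.7%) were higher and 1545 (23.4%) were lower in crypts at an adjusted p under 0.05, together 47.1%. These shares are the background for every list count below. The median difference over all genes tested was −0.02, and the lowest and highest 5% of genes lay below −1.48 and above 1.54. A change past 1 log2 unit in addition to the call was met by 787 higher and 749 lower genes. Among the 5671 genes measured on all 8 arrays, crypt and villus values did not overlap for 1822 genes (32.1%). The balance of directions depends on the scale. Over probe sets, 2670 were higher and 2509 lower after quantile normalization, 3011 and 1982 with the median of each array set equal, 2230 and 2693 on the deposited scale, and 2940 and 4080 with blanks filled at each array's lowest 5%. The median of all probe sets was 0.11 with array medians set equal and −0.15 with blanks filled.

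**Figure D2:**
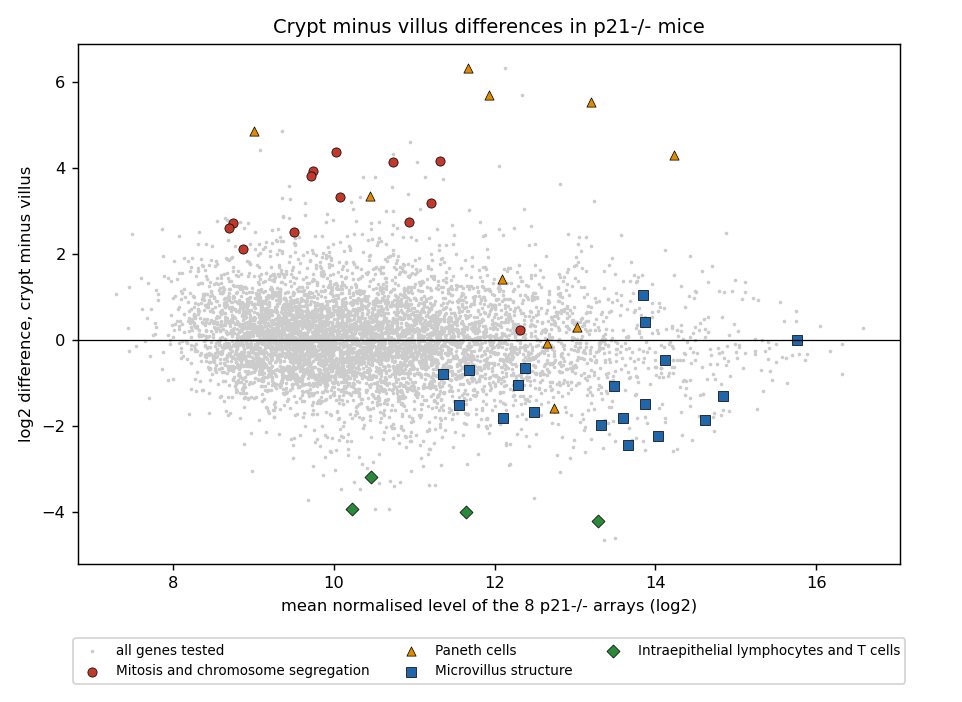
Difference between crypts and villi (log2, vertical axis) against the mean log2 signal of each gene in p21-/- mice (horizontal axis), with 1 point per gene tested and 4 lists marked. The points spread above and below 0, with Paneth cell genes up to 6.34 above it and all 4 lymphocyte genes at least 3.20 below it.

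Genes of cell division set the crypts apart. Of 18 tested genes of DNA replication, 15 were higher and 0 lower in crypts, with a median difference of 1.36, and of 13 tested genes of mitosis 12 were higher and 0 lower, with a median of 3.18. The same median over all genes was −0.02 and the share called in either direction 47.1%. Mcm5, a subunit of the replicative helicase, gave 11.12, 11.58, 11.43 and 10.27 log2 units in crypts, against 8.60, 7.86, 8.12 and 8.15 in villi. All 4 crypt arrays lay above all 4 villus arrays, a 7.55-fold excess (2.92 ± 0.35 log2, adjusted p = 3.76e-08). Its partner Mcm7 (2.10 ± 0.26), the primase subunit Prim1 (2.59 ± 0.36), the sliding clamp Pcna (1.30 ± 0.20) and Rpa2 (1.36) were higher too. Rfc3, a clamp loader subunit, was measured at 0.67 ± 0.34 and did not pass (adjusted p = 0.101).

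Top2a, the topoisomerase that untangles chromosomes before mitosis, gave 12.24, 11.70, 11.28 and 11.29 in crypts, against 7.68, 6.79, 7.65 and 9.11 in villi, a 14.1-fold excess (3.82 ± 0.39, adjusted p = 1.28e-09). Cks1b, a small subunit that binds Cdks, gave 12.43, 12.74, 12.27 and 11.41 in crypts, against 7.80, 7.46, 7.68 and 8.39 in villi (4.38 ± 0.45, adjusted p = 1.28e-09). For both genes the tissues did not overlap, crypt array 4 was at or near the low end of its group and villus array 4 was the highest villus array. Over the whole list, the summed signal, in which a blank adds nothing, was lowest on crypt array 4 (57731) among the crypts, where the others reached 75697 to 95567, against 7405 to 12071 on the villus arrays. Of the 33 genes summed, 28 to 30 had a value on a crypt array and 11 to 23 on a villus array. Cdc20, which activates the anaphase-promoting complex, was higher by 4.15 ± 0.47, Stmn1, a microtubule destabilizer, by 4.17 ± 0.37, Incenp, a scaffold of the Aurora B kinase, by 3.79 ± 0.33, and Ube2c, the ubiquitin-conjugating enzyme of mitotic exit, by 3.33 ± 0.44. These 4 promoters of Cks1b, Cdc20, Top2a and Ube2c are those printed above.

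Cyclins and kinases of the first gap phase were mixed. Of 11 tested, 5 were higher and 2 lower in crypts, with a median of 1.06. Ccnd1, cyclin D1, was measured in crypts at 11.97, 11.89, 11.24 and 11.27, against 8.56, 8.49 and 8.11 on 3 villus arrays with no value on the fourth (3.20 ± 0.34, adjusted p = 5.69e-09). The crypt and villus values were far apart. Its kinase partners Cdk6 (2.24 ± 0.30) and Cdk4 (1.85 ± 0.31), the cyclin Ccnd2 (1.45 ± 0.33) and Cdk2 (1.43 ± 0.27) followed. The 2 lower genes were the pocket proteins Rbl2 (−1.02 ± 0.24) and Rb1 (−0.59 ± 0.18), which hold E2F factors in check. Of 11 tested genes of DNA methylation and chromatin in dividing cells, 7 were higher and 1 lower (median 1.24), with Dnmt1, the maintenance methyltransferase, at 2.02 ± 0.34, the remodeller Hells at 1.70 ± 0.34 and Ezh2, the H3K27 methyltransferase, at 1.24 ± 0.19. The lower one was Tet2, which oxidises methylcytosine (−0.91 ± 0.25).

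Cdk inhibitors and p53 targets showed little of this contrast: of 12 tested, 2 were higher, 1 was lower and 9 did not pass, with a median of 0.04. Cdkn1a was the lower one. Cdkn2c, the p18 inhibitor of Cdk4 and Cdk6, was higher at 0.90 ± 0.21, and Pmaip1, a p53 target that promotes apoptosis, at 1.19 ± 0.32. Cdkn1b, the p27 inhibitor and relative of p21, was measured at −0.65 ± 0.41 (adjusted p = 0.193).

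Genes of ribosome production were also higher in crypts. Of 19 tested nucleolar and ribosome biogenesis genes 17 were higher and 0 lower (median 1.72), and all 14 tested ribosomal protein genes were higher (median 1.42, with a range of 0.75 to 2.34). Nop56, a core protein of small nucleolar ribonucleoproteins, gave 12.51, 11.92, 12.55 and 12.04 in crypts, against 9.29, 7.45, 8.81 and 8.33 in villi (3.78 ± 0.37, adjusted p = 4.09e-10), with no overlap of the tissues. Ncl, nucleolin, was higher by 2.24 ± 0.29, Gnl3, nucleostemin, by 2.46 ± 0.28, and Fbl, fibrillarin, by 2.23 ± 0.33. Among the ribosomal proteins, Rpl19 had the smallest of the differences (0.75 ± 0.21) and Rpl27a the largest (2.34 ± 0.36). In folate and one-carbon metabolism, which supplies carbon units for purines and thymidylate, 7 of 8 tested genes were higher and 1 lower (median 1.45). The purine enzymes Atic (2.41 ± 0.33) and Gart (2.27 ± 0.33) and the mitochondrial Shmt2 (1.70 ± 0.36) were higher. The lower one was Slc46a1, the proton-coupled folate transporter of the brush border (−2.65 ± 0.56).

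Markers of crypt base columnar stem cells were partly measured. Of 8 tested, 3 were higher and 0 lower in crypts (median 0.47). Olfm4, a secreted glycoprotein of these cells, gave 14.24, 13.65, 13.86 and 13.46 in crypts, against 8.53, 9.61 and 11.08 on 3 villus arrays, with no value on villus array 2 (4.06 ± 0.57, adjusted p = 5e-07). Slc12a2, the basolateral sodium, potassium and chloride cotransporter of crypt cells, gave 13.46, 12.71, 12.58 and 11.74 in crypts, against 8.77, 8.91, 9.71 and 9.54 in villi (3.39 ± 0.42). In both genes the lowest crypt value stood above the highest villus value. Prom1, the pentaspan membrane protein, was higher by 1.46 ± 0.33. Lgr5, the R-spondin receptor that defines these stem cells, had values of 8.87, 9.25 and 9.14 on 3 crypt arrays and none on any villus array, and so could not be tested.

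Wnt receptors differed little between the tissues, while Wnt target genes and Eph signals were mixed. The share called over all genes was 47.1%. Of 7 Wnt target genes tested, 3 were higher and 1 lower (median 0.95), with Cd44, the hyaluronan receptor, at 0.95 ± 0.29 and Axin2, the feedback inhibitor, at 0.85 ± 0.39 and not past the threshold (adjusted p = 0.0719). Of 8 receptors and ligands, 1 was higher and 0 lower (median 0.00). The higher one was the receptor Fzd5 (1.02 ± 0.34), whose call was lost without crypt array 1 or villus array 1 (largest adjusted p = 0.103). Of 4 Eph receptors and ephrins tested, 2 were higher and 1 lower, with the ligand Efnb2 at 0.93 ± 0.25 and the receptor Epha1 at −2.01 ± 0.37.

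Paneth cell genes had the highest median of the lists. These cells at the crypt base secrete lysozyme, defensins and other antimicrobials, and 7 of their 10 tested genes were higher, 1 was lower and 2 did not pass, with a median of 3.83. Itln1, an intelectin that binds microbial sugars, gave 14.73, 15.15, 14.97 and 14.52 in crypts, against 7.38, 8.52 and 9.60 on 3 villus arrays and no value on villus array 1 (6.34 ± 0.55, 81.1-fold, adjusted p = 7.57e-11). Lyz1, lysozyme, gave 16.36, 16.47, 16.53 and 16.19 in crypts, against 12.07, 11.11, 12.40 and 12.76 in villi (4.30 ± 0.41, adjusted p = 2.07e-10). The crypt arrays differed from each other by far less than from the villus arrays. The antimicrobial ribonuclease Ang4 (5.71 ± 0.58), the defensin Defa39 (5.54 ± 0.49) and the pentraxin Mptx1 (4.87 ± 0.72) were higher by similar amounts. Defensins and lysozymes have near-identical copies, so their probe sets may read more than 1 gene. The summed signal, in which a blank adds nothing, was 219126 to 279455 in crypts, with values for all 13 genes summed, and 25934 to 60401 in villi, with values for 9 to 12 of them.

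Other secretory cells were divided. Of 14 tested goblet cell genes, 1 was higher, 5 were lower and 8 did not pass (median −0.30), against 23.7% higher and 23.4% lower over all genes. Muc2, the gel-forming mucin, gave 14.57, 14.23, 13.63 and 13.66 in crypts, against 16.08, 15.53, 15.23 and 15.78 in villi (−1.63 ± 0.29, adjusted p = 1.46e-05), with no overlap. Clca1 (−2.37 ± 0.39) and Fcgbp (−2.11 ± 0.27), both secreted with mucus, and the trefoil peptide Tff3 (−1.19 ± 0.23) were lower. Spink4, a protease inhibitor of goblet cells, was the higher one, at 14.96, 15.21, 14.60 and 14.39 in crypts, against 12.45, 11.93, 13.26 and 11.75 in villi (2.44 ± 0.39, adjusted p = 3.13e-06).

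Of 10 tested enteroendocrine genes, 9 were lower and 1 was higher in crypts, with a median of −2.74. Chga, chromogranin A of the hormone granule, gave 9.60, 10.79, 10.32 and 9.51 in crypts, against 13.20, 11.60, 10.50 and 11.99 in villi (−1.77 ± 0.47, adjusted p = 0.00206). Its tissues overlapped, since villus array 3, at 10.50, lay below crypt array 2. The hormone genes Ghrl, ghrelin (−3.48 ± 0.50), Nts, neurotensin (−3.24 ± 0.70), Cck (−2.74 ± 0.53), Gip (−2.74 ± 0.47) and Sst, somatostatin (−2.73 ± 0.45), and Tph1, which makes serotonin (−3.03 ± 0.44), were lower. Gcg, the precursor of glucagon-like peptides, went the other way, with 12.19, 11.55, 11.35 and 10.41 in crypts, against 8.45, 8.77, 9.01 and 9.60 in villi (2.42 ± 0.42, adjusted p = 1.19e-05). Its tissues did not overlap. Of the tuft cell list 1 gene was tested and 0 passed, while 1 to 3 of its 10 measured members had a value on a crypt array and 8 to 10 on a villus array. In the Notch and secretory fate list 2 of 8 tested genes were higher and 1 lower (median 0.13), with the factor Sox4 at 1.63 ± 0.29 and the factor Klf4, a factor of goblet and villus cells, at −1.29 ± 0.31.

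**Figure D3:**
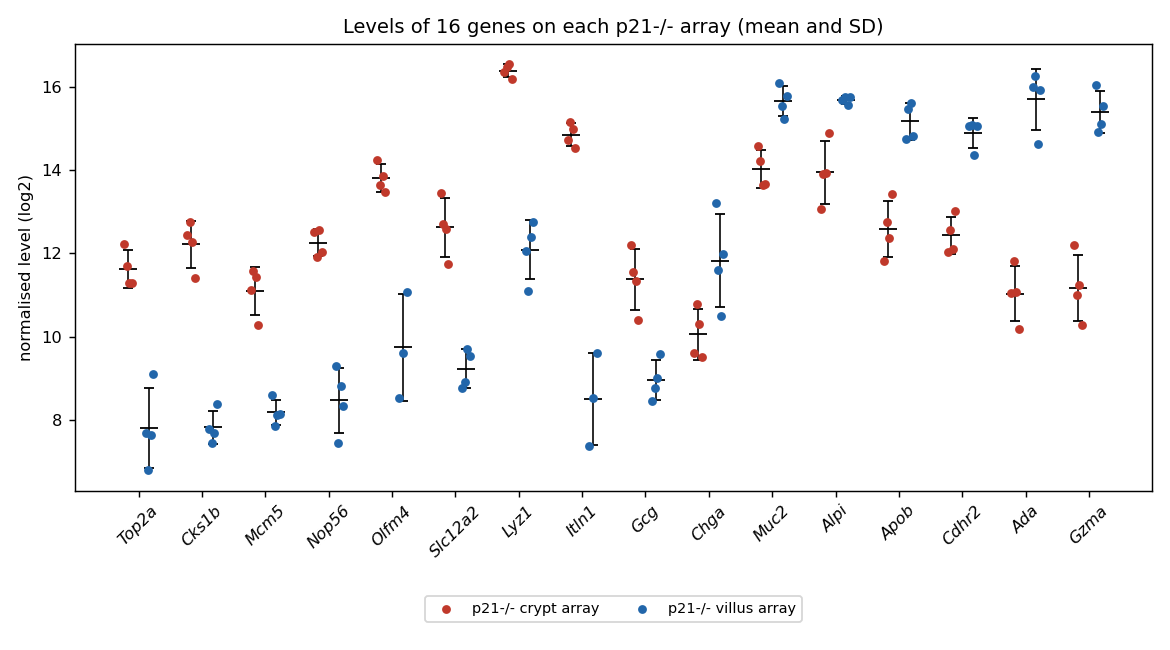
Log2 signal of selected genes on each of the 8 p21-/- arrays, crypts left of villi, with 1 point per array and bars for the mean and SD. Itln1 lies between 14.52 and 15.15 in crypts and between 7.38 and 9.60 in villi, and Gcg stands higher in crypts than in villi while Chga stands lower.

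Villi held the higher signal of the absorptive enterocyte genes. Brush border enzymes that digest sugars and phosphate esters were lower in crypts in 6 of 7 tested genes (median −1.69), peptidases in 6 of 9 (median −1.30), and none of either list was higher. Alpi gave 13.06, 13.90, 13.92 and 14.90 in crypts, against 15.69, 15.76, 15.55 and 15.76 in villi (−1.75 ± 0.31, adjusted p = 1.77e-05). Enpp3, an ectonucleotide phosphodiesterase, gave 11.85, 12.11, 10.78 and 10.03 in crypts, against 16.19, 16.06, 14.86 and 16.13 in villi (−4.62 ± 0.49, 24.5-fold lower). The tissues overlapped in neither gene, and crypt array 4 was the highest crypt array for Alpi and the lowest for Enpp3. Lct, lactase (−1.69 ± 0.43), Treh, trehalase (−2.50 ± 0.46), Dpp4, the dipeptidyl peptidase (−1.30 ± 0.34), and Mme, neprilysin (−1.98 ± 0.49), were lower.

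Nutrient transporters were lower in 11 of 17 tested genes and higher in 1 (median −1.16). Slc6a19, the neutral amino acid transporter, fell by 2.88 ± 0.50, Slc15a1, the peptide transporter, by 2.68 ± 0.47, Slc2a5, the fructose transporter, by 2.31 ± 0.52, and Slc5a1, the sodium and glucose cotransporter, by 1.02 ± 0.29. The exception was Slc38a2, a stress-responsive amino acid transporter, higher by 0.68 ± 0.20. Of 17 tested apolipoprotein and chylomicron genes, 14 were lower and 1 higher (median −1.26). Apob, the scaffold of chylomicrons, gave 11.81, 12.75, 12.37 and 13.42 in crypts, against 14.76, 15.46, 15.62 and 14.83 in villi (−2.58 ± 0.46, adjusted p = 1.82e-05), with no overlap. Apoc2, the cofactor of lipoprotein lipase whose promoter is printed above, fell by 2.33 ± 0.45, Apoa4 by 1.60 ± 0.32 and the regulator Creb3l3 by 2.52 ± 0.34. Apoa1 was at 16.71 on each villus array after quantile normalization, and its difference of −0.80 ± 0.27 lost its call without crypt array 1 (adjusted p = 0.0506). Plin2, a lipid droplet coat protein, was the higher one (0.82 ± 0.22).

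Fatty acid oxidation genes moved less, with 4 of 18 lower, 0 higher and a median of −0.10. Over all genes 23.4% were lower and 23.7% higher. Sterol and bile acid genes were split between 4 higher and 4 lower of 12. The cholesterol importer Npc1l1 (−2.29 ± 0.30) and the sterol exporters Abcg5 (−2.05 ± 0.27), Abcg8 (−2.09 ± 0.36) and Abca1 (−2.30 ± 0.55) were lower. The synthesis enzymes Hmgcs1 (0.95 ± 0.29) and Fdft1, squalene synthase (1.85 ± 0.37), were higher. Fabp6, the bile acid binding protein of the distal small intestine, was higher too, at 15.03, 15.22, 14.87 and 14.29 in crypts, against 13.66, 10.81, 9.09 and 12.90 in villi (3.24 ± 0.85, adjusted p = 0.00244). Its villus arrays ranged over more than 4 log2 units, far more than the crypt arrays. The region of the small intestine taken is not given in the labels.

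Purine breakdown was lower in crypts in 8 of 10 tested genes and higher in 1 (median −1.43). Ada, adenosine deaminase, gave 11.05, 11.82, 11.06 and 10.19 in crypts, against 16.00, 16.25, 14.62 and 15.92 in villi (−4.67 ± 0.51, 25.4-fold lower, adjusted p = 3.6e-09), with no overlap. Entpd8, an ectonucleotidase (−3.37 ± 0.28), and Xdh, xanthine dehydrogenase (−2.69 ± 0.29), were lower. Ion transport genes were split, with 5 higher and 6 lower of 14. Kcnn4, the calcium-activated potassium channel, gave 13.16, 12.98, 12.88 and 12.64 in crypts, against 8.57, 8.14 and 8.25 on 3 villus arrays with no value on villus array 2 (4.60 ± 0.38, adjusted p = 6.14e-11). Its partners in chloride secretion were higher as well, with the channel subunit Kcne3 at 3.58 ± 0.47 and the chloride channel Cftr at 1.36 ± 0.37. The exchanger Slc9a3, which absorbs sodium (−1.74 ± 0.39), and the carbonic anhydrase Car2 (−2.93 ± 0.39) were lower.

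Microvillus genes were lower in 15 of 19 and higher in 1 (median −1.30). Cdhr2, a protocadherin that links microvillus tips, gave 12.03, 12.57, 12.11 and 13.01 in crypts, against 15.07, 15.07, 14.36 and 15.05 in villi (−2.46 ± 0.31, adjusted p = 8.27e-08), and its partner Cdhr5 fell by 2.23 ± 0.32. Villus array 3 was the lowest villus array for Cdhr2, for Ada and for Enpp3. The bundler Vil1, villin (−1.30 ± 0.18), and the villus keratin Krt20 (−1.88 ± 0.20) were lower. The keratin Krt19 was the higher one (1.05 ± 0.26). Xenobiotic and retinoid enzymes were lower in 11 of 20 and higher in 0 (median −0.87), with Cyp3a11 at −2.58 ± 0.51 and Bco1, which cleaves carotene, at −2.93 ± 0.76. Rdh9, a retinol dehydrogenase outside the list, was among the lowest of all genes with no overlap of the tissues (−3.73 ± 0.56). Of 15 intestinal transcription factors, 2 were higher and 6 lower (median −0.06), with Isx, the intestine-specific homeobox, at 1.66 ± 0.30 and Tcf7l2, the Wnt effector, at −1.75 ± 0.47. Claudins and tight junctions had 2 higher and 3 lower of 14, BMP and hedgehog signals 2 higher and 3 lower of 11, and the Reg list 0 of 7, against 47.1% called over all genes.

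**Figure D4:**
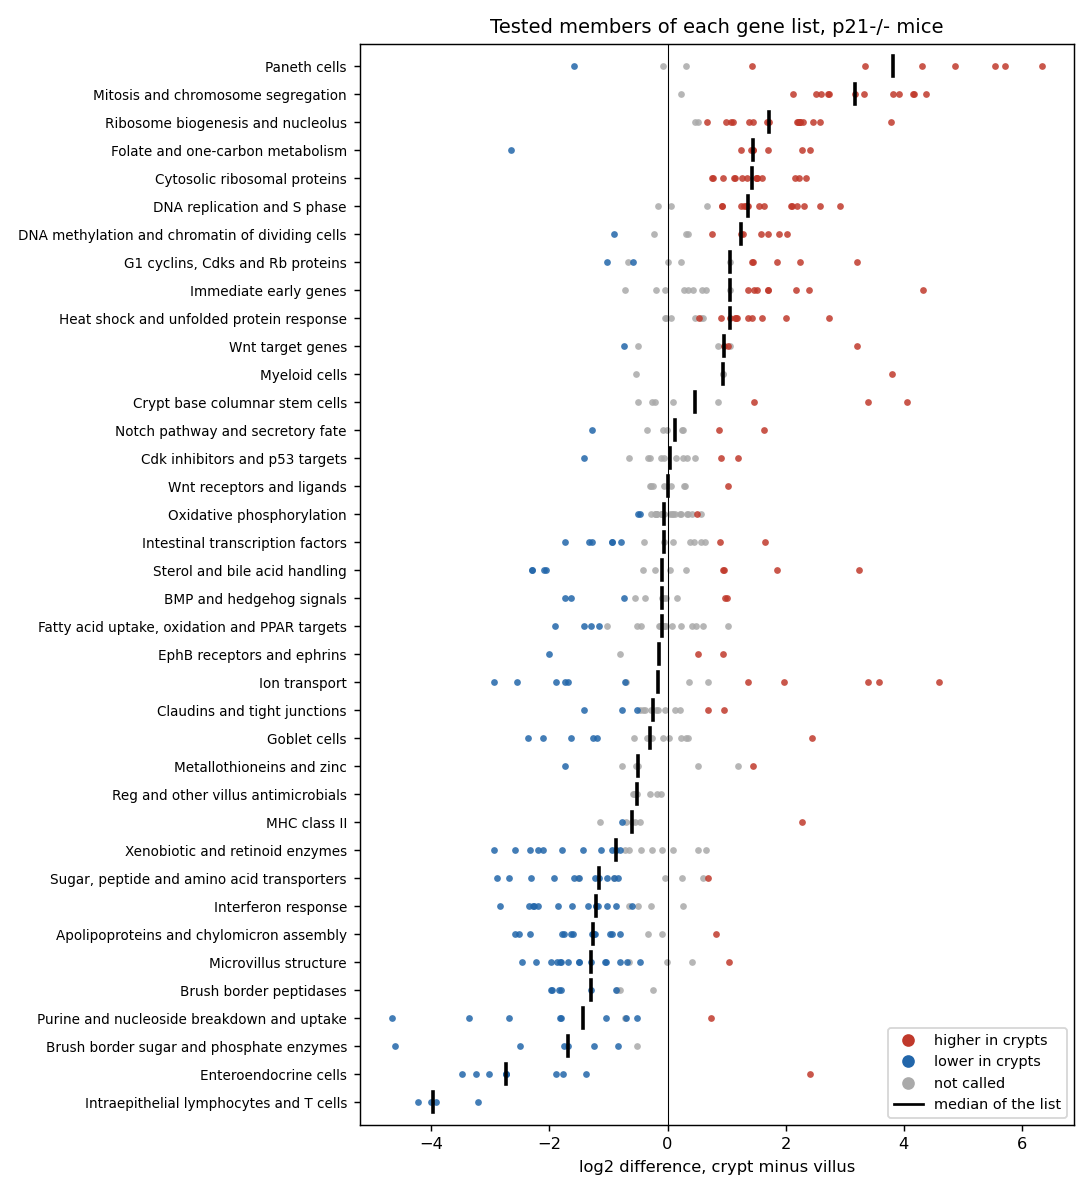
Differences between crypts and villi (log2) for the tested genes of each list in p21-/- mice, 1 point per gene, with the list median. Mitosis (median 3.18) and Paneth cell genes (3.83) lie at the crypt end, and lymphocyte (−3.96) and enteroendocrine genes (−2.74) at the villus end.

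Genes of the lymphocytes that live between enterocytes were lower in crypts than in villi. All 4 tested genes of their list were lower in crypts (median −3.96). Gzma, granzyme A of cytotoxic cells, gave 12.20, 10.99, 11.23 and 10.28 in crypts, against 16.04, 14.91, 15.12 and 15.53 in villi (−4.22 ± 0.45, 18.7-fold lower, adjusted p = 2.48e-09). The chemokine Ccl5 (−4.00 ± 0.64), the receptor subunit Klrd1 (−3.93 ± 0.53) and Ptprc, the CD45 antigen (−3.20 ± 0.47), were lower. Over the list, 3 to 9 of 17 measured members had a value on a crypt array and 15 to 17 on a villus array, and the summed signal, in which a blank adds nothing, was 3245 to 8908 in crypts and 62203 to 194929 in villi. Cd3d, a chain of the T cell receptor complex, and Cd8a, a coreceptor chain, had no value on any crypt array and a value on all 4 villus arrays. Gimap4, a lymphocyte GTPase, differed by −3.34 ± 0.50.

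Interferon response genes were lower in crypts in 14 of 18 and higher in 0 (median −1.21). Ifit1, which binds foreign RNA, gave 8.66, 9.57, 9.43 and 8.63 in crypts, against 12.13, 11.99, 12.77 and 10.75 in villi (−2.84 ± 0.45, adjusted p = 3.33e-06), with no overlap. The RNA sensor Ifih1 (−2.35 ± 0.27), Oasl2 (−2.26 ± 0.35) and the deubiquitinase Usp18 (−2.20 ± 0.48) were lower. These genes shared the tissue direction of the lymphocyte list. On villus arrays 1, 2, 3 and 4, in the order of the Ifit1 values above, the summed lymphocyte signal was 194929, 66442, 62203 and 119082. The part of lymphocytes in the result was not tested. Of 7 MHC class II genes, 1 was higher and 1 lower (median −0.60), against 47.1% called in either direction over all genes.

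Other cell types gave few values. No gene of the fibroblast, endothelial, neuronal, erythroid, mast cell or adipocyte lists could be tested in p21-/- mice. Of 4 tested myeloid genes 1 was higher and 0 lower, and the higher one was Lyz2, at 12.91, 12.88, 13.49 and 12.86 in crypts, against 9.08, 9.18, 8.89 and 9.80 in villi (3.80 ± 0.39, adjusted p = 1.27e-09). Lyz2 marks macrophages, but its sequence is close to that of Lyz1, and its probe set may read both. Csf1r, the receptor that defines macrophages, was measured at 0.95 ± 0.42 (adjusted p = 0.0634). Jchain, the joining chain of secreted antibodies, was higher by 1.94 ± 0.63, a call that was lost without crypt array 1 (adjusted p = 0.068), which at 13.04 stood above 11.07 to 11.39 on the other crypt arrays.

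The stress and early response genes that were called were higher in crypts. Of 17 tested immediate early genes 8 were higher and 0 lower (median 1.06), and of 17 heat shock and unfolded protein response genes 11 were higher and 0 lower (median 1.05). Over all genes 23.7% were higher and 23.4% lower, together 47.1%. The share of immediate early genes called in either direction was near that 47.1%. Ccn1, a matrix protein induced within minutes of stimulation, gave 13.44, 13.07, 13.29 and 11.82 in crypts, against 8.89, 8.85, 8.78 and 7.81 in villi (4.33 ± 0.40, adjusted p = 1.65e-10). Array 4 was the lowest in both tissues, and the tissues did not overlap. The factor Egr1 (2.18 ± 0.32), the AP-1 member Fosb (2.39 ± 0.51) and the chaperone Hsph1 (2.74 ± 0.42) were higher. Oxidative phosphorylation genes were near even, with 1 higher and 2 lower of 23 (median −0.05). Of 7 metallothionein and zinc transport genes, 1 was higher and 1 lower (median −0.50). The higher one was Mt1, a metallothionein that binds zinc (1.45 ± 0.41), and its neighbour Mt2 was measured at 1.19 ± 0.59 (adjusted p = 0.101).

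Genes with values in only 1 of the tissues could not be tested. There were 32 genes measured on all 4 crypt arrays and blank on all 4 villus arrays, and 165 with the reverse pattern. Among the brightest of the crypt genes were Mmp7, the protease that activates defensins (mean 12.36 log2 units), Rbp7, a retinol binding protein (11.38), the replication nuclease Fen1 (11.26) and Pold1, the catalytic subunit of DNA polymerase delta (11.19). Among those of villi were Cd7, an antigen of lymphocytes (12.01), Ceacam18, an adhesion molecule (11.67), and Ctsw, a protease of cytotoxic lymphocytes (11.44). The reason for a blank is not stated in the files, so these genes have a level in 1 tissue and none given in the other. The crypt arrays held fewer values in all.

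The p21-/- axis was set against those of the other genotypes. Across the 6340 genes tested in both p21-/- and wild-type mice, the differences correlated at r = 0.789, a description over genes that share arrays and probe sets and are not independent. Of these, 1967 genes were called in both, which is 66.2% of the p21-/- calls and 65.7% of the wild-type calls. Wild-type mice by themselves had 48.2% of 7013 tested genes called and Apc1638N/+ mice 43.6% of 6876. The sign was the same for 1943 of them and opposite for 24. Against Apc1638N/+ mice r was 0.911 over 6381 genes, and of 2192 genes called in both 2191 had the same sign.

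A test of the difference between the axes called 49 genes higher (0.773%) and 39 lower (0.615%) in p21-/- than in wild-type mice, together 1.39% of 6340, and 111 probe sets higher and 53 lower, together 1.5% of 10910. This count rests on the arrays and the scale. Leaving out 1 array moved the number of probe sets between 12 (without p21-/- crypt array 3) and 651 (without p21-/- villus array 1). It was 99 higher and 261 lower on the deposited scale, 187 higher and 44 lower with array medians set equal, and 6 in all when only these 4 groups were fitted. The median of all probe sets also moved, to −0.22 on the deposited scale. Wild-type crypt arrays 2 and 4 had the higher signal of brush border sugar enzymes, a summed 156801 and 138111, against 53010 and 100686 on wild-type crypt arrays 1 and 3 and 57982 to 93925 on p21-/- crypt arrays. Lymphocyte signal was also highest there, at 22100 and 44089, against 9006 and 17728 on the other wild-type crypt arrays. Their excess of 3' over 5' signal for Gapdh was higher too, at 1.40 and 0.96, against 0.01 and 0.58 on wild-type crypt arrays 1 and 3. Without wild-type crypt arrays 2 and 4, 109 probe sets were higher and 35 lower, and 76 were shared with the full set. For none of these calls was the part of the array differences tested.

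With only these 4 groups fitted, 23 of the 24 genes examined for this difference lost their call, so the values below describe the full set of arrays. Mdm2, the ubiquitin ligase that p53 induces and that degrades p53, gave 10.19, 10.32, 10.83 and 9.69 in p21-/- crypts, against 10.99, 10.35, 9.38 and 10.78 in p21-/- villi. In wild-type mice it gave 8.67, 8.95, 9.09 and 9.04 in crypts, against 11.50, 10.82, 12.21 and 11.40 in villi. Only the wild-type tissues were apart: the difference was −0.12 in p21-/- and −2.55 in wild-type mice, and the axes differed by 2.43 ± 0.51 (adjusted p = 0.015, and 2.49 with 0.0327 without the 2 arrays). The call for Mdm2 was lost without p21-/- crypt array 3, narrowly (adjusted p = 0.0503).

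Lyz2 differed by 3.80 in p21-/- and 1.18 in wild-type mice, a difference of 2.61 ± 0.55 (adjusted p = 0.015, and 2.75 with 0.0263 without the 2 arrays). Its probe set may also read Lyz1, a Paneth cell gene, so the difference cannot be assigned to Lyz2 alone. Clps, colipase, differed by 1.43 in p21-/- and −1.36 in wild-type mice, and Pnliprp2, a lipase related to pancreatic lipase, by 3.35 and 0.33. Their axes differed by 2.79 ± 0.64 (adjusted p = 0.0209) and 3.02 ± 0.78 (adjusted p = 0.0377). The 2 measured genes of the pancreatic acinar list are Clps itself and Cela1, so their summed signal is not separate from the Clps result. That sum was 5687 to 10538 in p21-/- crypts and 1101 to 4256 in wild-type crypts, and Cela1 differed by −0.46 in p21-/- mice. Clps and Pnliprp2 are also on the Paneth cell list, which summed to 219126 to 279455 in p21-/- crypts and 90683 to 205384 in wild-type crypts. The part of either cell type was not tested. Chd7, a chromatin remodeller, differed by 2.39 in p21-/- and −0.95 in wild-type mice (3.34 ± 0.78, adjusted p = 0.0227). Atoh1, the factor that fixes secretory fate, was at −0.35 in p21-/- and −1.93 in wild-type mice (1.58 ± 0.37, adjusted p = 0.0228). Lyz2, Clps, Pnliprp2, Chd7 and Atoh1 still passed without wild-type crypt arrays 2 and 4 (adjusted p = 0.0262 to 0.0412). The same genes lost their call without p21-/- crypt array 3 (adjusted p = 0.0503 to 0.0889). Lyz2 lost it there only, while Clps lost it in 3, Atoh1 in 5, Chd7 in 6 and Pnliprp2 in 10 of the 16 fits that each left out 1 array of the 4 groups. The call for Clps within p21-/- mice was also lost without villus array 3 (adjusted p = 0.0543). Efnb2 (1.67 ± 0.35, adjusted p = 0.015) and the unnamed transcript 4932431P20Rik (2.89 ± 0.49, adjusted p = 0.00308) kept their call in all 16, with a largest adjusted p of 0.0497 for Efnb2 and 0.0297 for 4932431P20Rik.

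Of the genes lower in this test, 3 are named here. In the lists, 2 of 9 brush border peptidases, 1 of 7 sugar and phosphate enzymes and 0 of 19 microvillus genes differed from wild type in either direction, against 1.39% of all genes. Naaladl1, a peptidase, gave 12.70, 12.47, 12.81 and 13.12 in p21-/- crypts, against 14.02, 13.74, 13.69 and 14.60 in p21-/- villi, and 12.42, 14.48, 14.01 and 13.51 in wild-type crypts, against 12.54, 11.80, 11.55 and 12.60 in wild-type villi. The p21-/- crypts lay below their villi, and wild-type crypts, array 1 aside, lay above theirs. The difference was −1.24 in p21-/- and 1.49 in wild-type mice (−2.72 ± 0.70, adjusted p = 0.0377). Vnn1, a pantetheinase, differed by −1.91 in p21-/- and 0.53 in wild-type mice (−2.44 ± 0.66, adjusted p = 0.0452), and Enpep, aminopeptidase A, by −0.86 and 1.15 (−2.01 ± 0.53, adjusted p = 0.0416). Of the wild-type crypt arrays, 2 and 4 were highest in sugar enzyme and lymphocyte signal and in 3' excess for Gapdh. The lymphocyte sums of arrays 2 (22100) and 3 (17728) were close. For peptidases array 3 (76785) lay between array 1 (40283) and arrays 2 (96705) and 4 (107703). Without arrays 2 and 4, and so with fewer arrays, the differences were −2.34 ± 0.78, −1.74 ± 0.71 and −1.71 ± 0.60. None of the 3 then passed (limma, adjusted p = 0.0997, 0.185 and 0.114). The part of the signal of these arrays in the calls was not tested. Leaving out 1 array ended the call of Naaladl1 in 9, of Enpep in 10 and of Vnn1 in 11 of the 16 fits. The call for Naaladl1 within p21-/- mice was lost on leaving out any of 5 arrays (largest adjusted p = 0.116).

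No gene's axis differed between p21-/- and Apc1638N/+ mice at an adjusted p under 0.05, 0 of 10942 probe sets, with 529 under an unadjusted p of 0.05. The values nearest to a call were those of Tmem129 (−1.75, adjusted p = 0.18) and AI467606 (1.85, adjusted p = 0.345). For Mdm2 the difference between crypts and villi was −1.07 in Apc1638N/+ mice, between the values of the other genotypes.

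**Figure D5:**
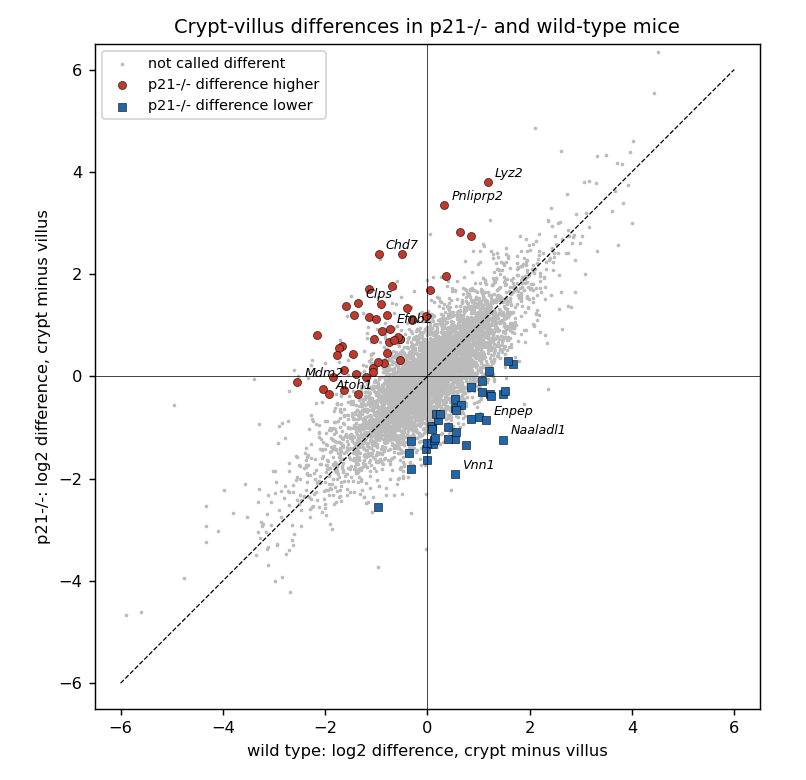
Difference between crypts and villi (log2) in p21-/- mice (vertical axis) against that in wild-type mice (horizontal axis), 1 point per gene tested in both, with genes whose axes differ marked. Most of the 6340 genes follow the diagonal (r = 0.789), and Mdm2, at −0.12 in p21-/- and −2.55 in wild-type mice, lies off it.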

How the data were processed

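Total RNA of crypts and villi was made into biotinylated cRNA and hybridised to Affymetrix 3' arrays, per the labels' protocols. The values were made with GCOS, per the submitters' processing notes; no source used here states its version or settings. The deposited values are log2 signal that the authors scaled per array, for 45101 probe sets on 47 arrays, with 55.2% of cells blank and 0 unused sample columns. No source used here gives the reason for a blank, so blanks were treated as missing and not as 0.

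The arrays' trimmed means (2% left out at each end) differed up to 1.46-fold over the probe sets measured on all arrays, past the limit of 1.2-fold set for keeping the deposited scale. The log2 values were therefore quantile normalised on the 8350 probe sets common to all arrays. The 14919 probe sets above the array median on at least 3 arrays were kept, and a probe set needed values on at least 3 arrays of each group compared. Tests used limma 3.58.1 in R 4.3.3 on all 47 arrays in 12 groups, without a block and with the prior variance following the mean signal, and p-values were adjusted (Benjamini-Hochberg) over all probe sets tested. A call is an adjusted p under 0.05. Genes were named through the platform annotation (34945 probe sets with 1 symbol, 932 with several and 9160 with none, beside 64 controls), of which 34741 matched RefSeq. A gene is represented by its probe set with the highest mean, and gene counts use those.

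Named genes are members of the lists, the 10 genes with the largest difference in each direction among those without overlap, the brightest genes with values in 1 tissue only, and, for differences between axes, the 8 with the largest value in each direction. The members, lists and motifs were chosen with earlier results of these data known. In simulated data of 11371 probe sets, 200 of them changed, the test recovered 56% at a log2 difference of 1 and 96% at 2, with 11 unchanged probe sets called. In the real contrast 5179 were called, and the adjustment depends on the share that changes, so these rates need not hold there. The test of differences between axes was not simulated. Same-numbered p21-/- crypt and villus arrays correlated at 0.425, 0.177, 0.0225 and 0.282 in their deviations from the group means, all positive. Those of wild-type mice correlated at 0.0507, 0.0483, −0.239 and 0.121, and those of the Ain76A mice aged 1 year at 0.139, 0.270, 0.114 and 0.294. The labels name no pairs and the values are uneven, so an unpaired model was kept. Pairing by number remains possible. Array measures were compared by exact permutation tests. The number of arrays limits the precision. Alternatives covered scaling, blanks, filters, the model and leaving out each array.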

Additional observations from a re-analysis of the deposited data

Results flagged for a closer look

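In 340 groups of 4 arrays over the genes examined, 21 held a value far from the other 3 by Dixon's gap test, which chance gives in about 1 of 20 groups. On p21-/- villus array 3 these were the low values of Enpp3 (14.86), Npc1l1 (13.92), Cdhr2 (14.36), Smad6 (8.85), Bco1 (10.49), Efnb2 (11.44) and Fosb (8.20), and the high values of Rrm2 (11.29) and Vnn1 (13.21). On crypt array 4 they were the high values of Ube2c (12.11), Muc13 (14.41), Dpep1 (12.01) and Slc5a1 (14.83) and the low values of Fbl (11.10) and Nts (7.10). On villus array 1 Apoc3 (15.42) and Cftr (8.22) were low, and on villus array 4 Ccn1 (7.81) was low. On the other crypt arrays the highest values were those of Lig1 on array 2 (10.80), Lyz2 on array 3 (13.49) and Jchain on array 1 (13.04). All are log2 levels.

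The difference between crypts and villi was itself different in p21-/- and wild-type mice by limma's test for the following genes, as the log2 difference in p21-/- minus that in wild-type mice. It was positive for Chd7 (3.34), Pnliprp2 (3.02), Endod1 (2.97), Wnk1 (2.96), 4932431P20Rik (2.89), Srpk2 (2.84), Clps (2.79), Cdiptos (2.63), Lyz2 (2.61), Mdm2 (2.43), Efnb2 (1.67) and Atoh1 (1.58). It was negative for Naaladl1 (−2.72), Vnn1 (−2.44), Aoc1 (−2.10), Enpep (−2.01), Apmap (−1.83), Adgra3 (−1.81), Clca3a1 (−1.81), Ilvbl (−1.78), Slc3a2 (−1.69), Clca4b (−1.59), Mep1b (−1.48) and Muc13 (−0.93). Of these 24 genes, 12 lost their call without wild-type crypt arrays 2 and 4. Without 1 array in turn, Efnb2 and 4932431P20Rik were called in all 16 fits. Srpk2 was called in the 13 and Cdiptos in the 7 fits that could test them.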

How the results depend on the processing

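Among the genes examined for each contrast, no difference changed its sign under an alternative. Genes named only for the difference between axes, such as Mdm2 and Chd7, were not repeated for the contrast within p21-/- mice. The balance of higher and lower calls did turn with the scale and with filled blanks, as given here and beside the counts. The count of probe sets that differed between p21-/- crypts and villi, 5179, stayed within 1.5 times of that under every other scaling, filter and model tried, except 3157 with 1 probe set per gene, which has fewer to call, and 465 when the difference had to exceed 1 log2 unit (limma's treat). It was 3522 when only the 8 p21-/- arrays were fitted. Leaving out 1 array gave 4252 to 5002. With the replicate numbers as a block, whose pairing neither the labels nor every correlation supports, the count was 5568, and 4207 with the block and only the 8 p21-/- arrays, chosen after seeing the data. Of the p21-/- crypt arrays, 1, 2 and 4 correlated best with the villus array of their own number (0.425, 0.177 and 0.282), and array 3 with villus array 1 (0.198), a hint from the data and not from the design.

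The count of probe sets whose axis differed from wild type, 164, was 360 on the deposited scale (99 higher, 261 lower), 323 with blanks set to each array's lowest 5% (126 higher, 197 lower), 261 without the filter, 368 with the replicate block, 6 with only the groups compared, 89 with 1 probe set per gene and 0 without wild-type crypt arrays 2 and 4 and with only the groups compared (added after seeing the data). Leaving out 1 array gave 12 (p21-/- crypt array 3) to 651 (p21-/- villus array 1). The other changes past 1.5 times came without p21-/- crypt arrays 1 (53), 2 (91) and 4 (515), p21-/- villus arrays 2 (67), 3 (71) and 4 (38), wild-type crypt array 2 (100) and wild-type villus arrays 1 (109), 2 (274) and 3 (33). The cause was not tested. Against Apc1638N/+ mice the count of 0 became 3 with blanks filled and lay between 0 and 1 on leaving out 1 array. The ratio of trimmed means of crypt over villus arrays was 0.980 over common and 1.15 over all measured probe sets. For the genes examined in the contrast of p21-/- crypts and villi, 2948 repeats kept the call or its absence, 134 lost it and 22 gained it. For the difference from wild type 405 kept it and 201 lost it.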
